A study of Caenorhabditis elegans with 6 samples.

Results

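The genes that activate fatty acids and break them down by beta-oxidation were examined in whole *Caenorhabditis elegans* adults that express human Aβ, with *hlh-30* overexpressed or knocked out. Members were chosen by name: every gene called *acs*, *cpt*, *acdh*, *acox*, *ech*, *maoc*, *hacd* or *kat* followed by a number in the deposited tables, provided that 2 or more libraries of a table had 10 normalized reads or more. Of 53 genes with such a name, 52 reached that minimum, out of 15918 genes that reached it in the overexpression table and 15749 in the knockout table. They comprised 21 *acs*, 12 *acdh*, 9 *ech* and 6 *cpt* genes and 1 gene each of *acox*, *hacd*, *kat* and *maoc*. The gene left out was *acdh-6*, with 6.72 and 6.72 normalized reads in the overexpression libraries and 5.29 and 0 in the controls. The members nearest to the minimum on the inside were *acs-9* (9.60 and 20.2 normalized reads with overexpression, 12.7 and 5.07 in controls) and *acdh-2* (11.5 and 6.72 with overexpression, 5.29 and 16.2 in controls). *acs-9* is now named *pkal-1*, a name outside the rule, and was kept as an *acs* gene by its deposited name.

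RNA was sequenced from 3 groups of 2 libraries. The first group was *hlh-30* overexpression (hlh-30 ox). GMC101 crossed with a line carrying *hlh-30* fused to GFP under its own promoter is in the study's list of strains. The methods do not name the overexpression strain that was sequenced. The next was *hlh-30* knockout (hlh-30 ko), in which the methods describe a deletion of the first 4 exons. The control was the Aβ strain GMC101, which makes Aβ in body wall muscle from the *unc-54* promoter and carries an intestinal GFP marker from the *mtl-2* promoter. By the labels all groups carry Aβ, so that no group without Aβ was compared. The sample labels place the worms on day 1 of adulthood, and the methods state growth at 20°C to young adults and then 25°C for 24 h. The series description names another Aβ strain, CL4176, where the sample labels name GMC101. The study's list of strains gives a *rol-6* plasmid among the transgenes of CL4176, of its cross with the *hlh-30* fusion line and of crosses that also carry an autophagy reporter, and not for GMC101 or its cross with the *hlh-30* fusion line alone. *rol-6*, a cuticle collagen gene, had 1030 and 1012 normalized reads in hlh-30 ox libraries, against 31.7 and 14.2 in controls (log2 fold change 5.52, adjusted p = 6.59e-07), and 15.3 and 39.8 in hlh-30 ko libraries, against 31.2 and 13.9 in controls. The ox libraries were therefore high in this gene and no others were, and a difference in strain or transgene between the ox and control worms cannot be told apart from *hlh-30* overexpression in the values below. Nothing states whether the 2 libraries of a group came from separate cultures, so p-values measure the spread between these libraries, which may be technical.

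A fatty acid enters metabolism once an acyl-CoA synthetase (*acs* genes) has joined it to coenzyme A. In mitochondria, carnitine palmitoyltransferases (*cpt*) bring the chain in, acyl-CoA dehydrogenases (*acdh*) make the first oxidation, enoyl-CoA hydratases (*ech*) add water, a hydroxyacyl-CoA dehydrogenase (*hacd*) makes the second oxidation and a thiolase (*kat*) cuts off acetyl-CoA. In peroxisomes an acyl-CoA oxidase (*acox*) makes the first oxidation, hydration is carried out by enzymes such as MAOC-1, and the thiolase is DAF-22. The worm peroxisomal route also shortens the side chains of ascaroside pheromones. HLH-30 is the worm counterpart of TFEB, a transcription factor of autophagy, lysosome and lipid breakdown genes. By what is known of the enzymes, 23 members were placed at mitochondrial steps, 5 at peroxisomal steps (*acs-7*, *acox-1*, *maoc-1*, *ech-8* and *ech-9*), and 24, most of them synthetases, were left without a compartment.

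Values are normalized reads, that is the reads of a gene divided by a size factor for its library. The 6 libraries ranged in depth between 18097925 and 19300834 reads assigned to genes, and the share taken by the 10 most read genes was 6.40% to 7.01%. Each comparison has its own table and scaling, and the same 2 control libraries serve both. The targeted gene had 6022 and 5693 normalized reads in hlh-30 ox libraries, against 3102 and 3315 in controls (log2 fold change 0.87 with a standard error, SE, of 0.06, adjusted p = 3.97e-06). In the libraries labelled hlh-30 ko it had 2104 and 3005, against 3049 and 3258 in controls (log2 fold change -0.33, SE 0.17, adjusted p = 0.511). The count is over the whole gene, so reads from exons outside the deletion are in it and it does not check the knockout label. The knockout libraries stood apart from each other: 8.81% of genes tested differed at least 2-fold between the 2 ko libraries, against 3.12% between the 2 ox libraries and 4.17% between the controls.

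The 52 genes were expressed at well above the middle of the transcriptome. Their median control level was 801 normalized reads, against 221 for all genes tested, and whether this raised the share of members called was not tested. Levels of different genes are compared per kilobase of exon. On that scale *acs-19*, the counterpart of cytosolic acetyl-CoA synthetase, stood highest at 11530 normalized reads per kb in controls, ahead of the hydroxyacyl-CoA dehydrogenase gene *hacd-1* (8663), *acs-2* (7452) and *acs-13* (4187). The highest of the other families were *ech-6* (2715), *cpt-1* (2555), *kat-1* (2381), *maoc-1* (920) and *acox-1* (679), and among the *acdh* genes *acdh-3* (1811) and *acdh-10* (1465) stood above *acdh-12* (1339), which had the most reads before division by length. The peroxisomal gene *ech-9* was among the lowest members at 20.2.

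**Figure D1:**
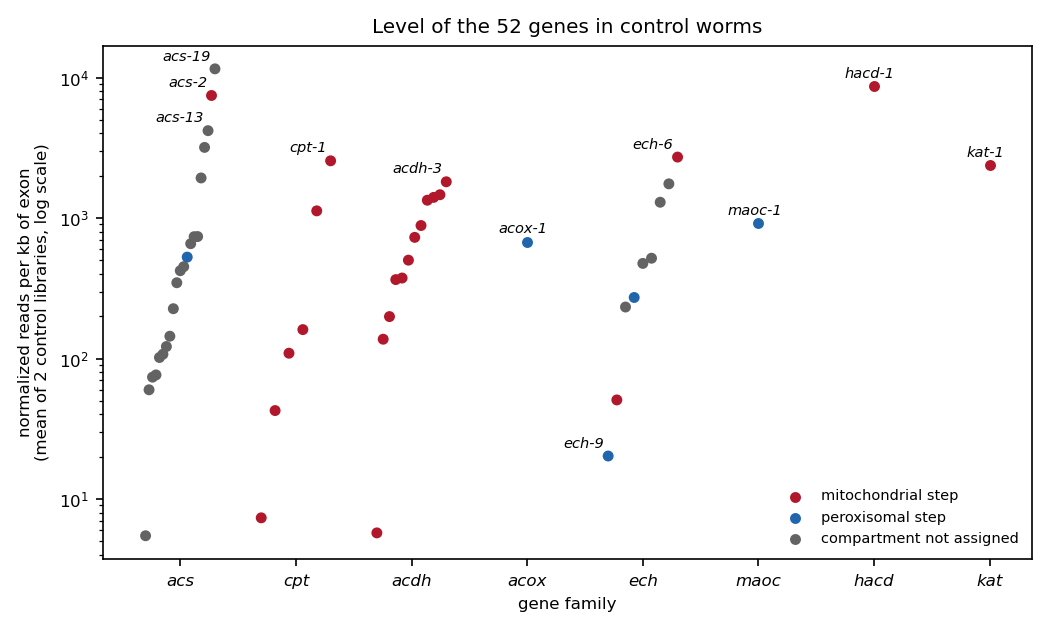
Level of each of the 52 genes in control worms, in normalized reads per kb of exon (mean of the 2 control libraries, log scale), by gene family on the x axis; colour marks the compartment. The synthetases span the widest range, up to *acs-19* at 11530, and the mitochondrial genes *hacd-1* (8663) and *acs-2* (7452) come next, while the peroxisomal members lie at or below 920.

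*hlh-30* overexpression was set against control first. Of the 52 genes, 17 passed an adjusted p of 0.05 (limma on log2 of normalized reads plus 1, Benjamini-Hochberg over all genes tested): 5 rose and 12 fell. Over all genes tested, 14.8% passed, 6.71% higher and 8.06% lower, and the members stood at 32.7%, 9.62% higher and 23.1% lower. The shifts were small. Only *ech-9* also reached the 2-fold change used in the methods, a threshold that 1.86% of all genes tested passed (1.72% upward). At an unadjusted p under 0.05 there were 24 members, while 28.9% of all genes were under that value. Over the 52 genes the median log2 change was -0.13, beside -0.002 for all genes. Values of both ox libraries lay above both controls in 10 members and below both in 24, which makes 65.4% of members whose groups did not overlap, against 57.4% of all genes (27.9% above and 29.4% below). The count of 17 depended on the libraries kept: it was 0 without control replicate 1 and 0 without control replicate 2, where no gene of the whole table passed either, 9 without ox replicate 2 and 20 without ox replicate 1. With 1 ox library left out, the number called over all genes moved in the same direction as the number of members. DESeq2 called 8 of the 17, *acs-10*, *ech-7*, *acs-2*, *ech-9*, *acdh-8*, *acs-1*, *acs-5* and *acdh-7*. With edgeR 16 were called, where DESeq2 called 11.3% and edgeR 14.8% of all genes.

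**Figure D2:**
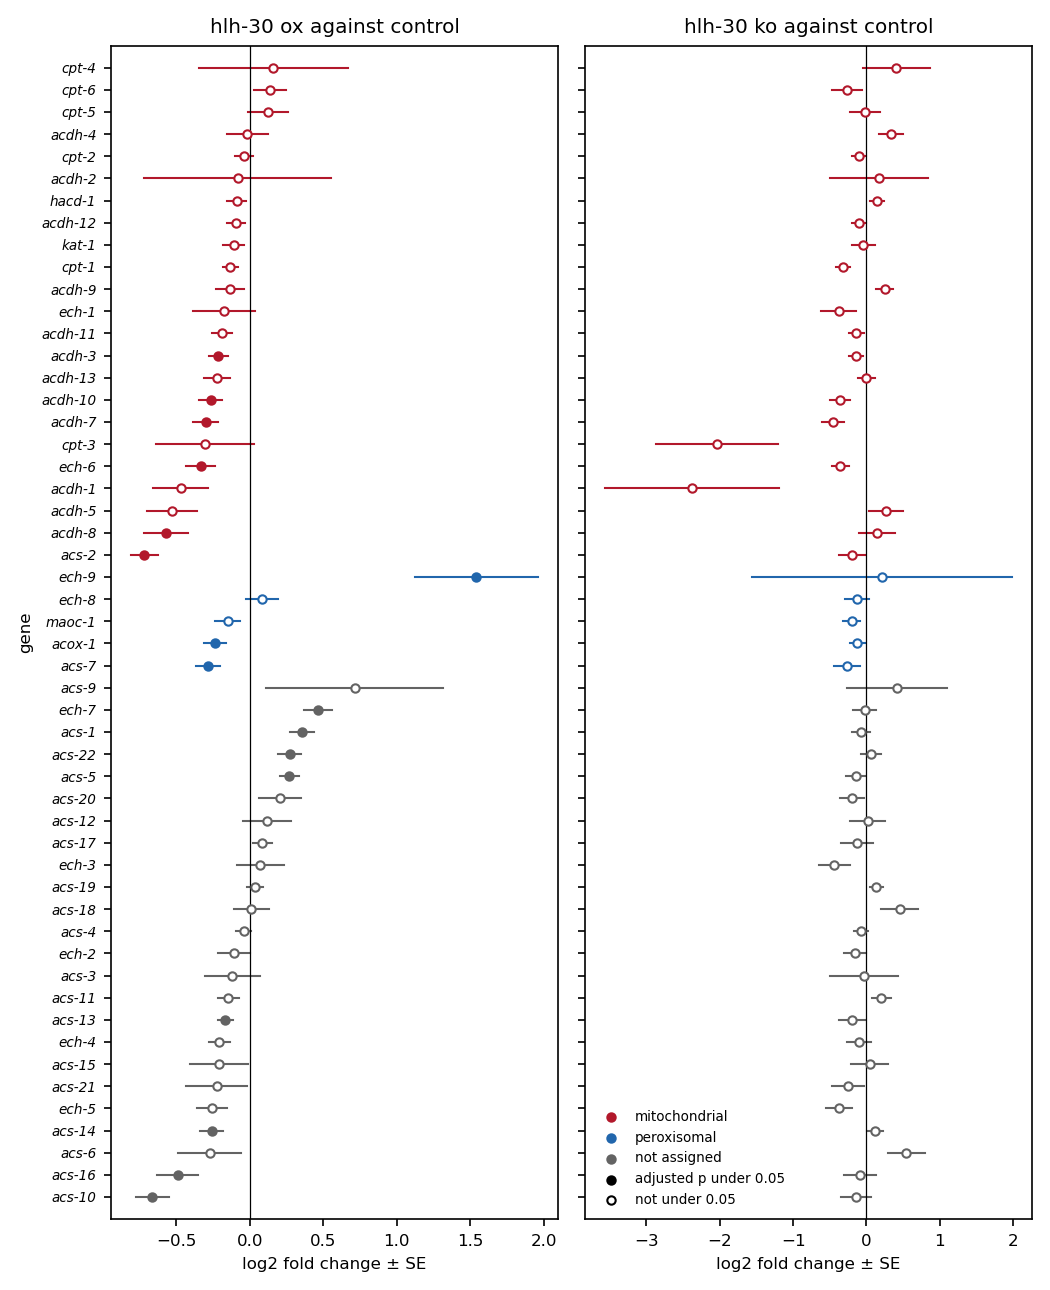
Log2 fold change of each of the 52 genes, hlh-30 ox against control on the left and hlh-30 ko against control on the right (the axes have different ranges). Bars are ± 1 SE from limma with 2 libraries a group, filled points have an adjusted p under 0.05, and genes are ordered within compartment by the overexpression value. All filled points are on the overexpression side, 17 in number, with every filled mitochondrial gene below 0.

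At the mitochondrial steps 6 of 23 genes fell (26.1%, against 8.06% of all genes tested) and none rose. The median log2 fold change was -0.17, beside -0.002 for all genes, and 20 of the 23 were below 0. The median over these genes was -0.09 in ox replicate 1 and -0.25 in ox replicate 2, each relative to the control mean, so the second library lay further from control. *acs-2*, a mitochondrial acyl-CoA synthetase known to be induced by fasting through the nuclear receptor NHR-49, had the smallest adjusted p of the members. It had 10767 and 8301 normalized reads in hlh-30 ox libraries, against 15921 and 15124 in controls. Both ox libraries were thus well below both controls, with a mean 0.614 times that of the controls (log2 fold change -0.71, SE 0.09, adjusted p = 4.17e-04). The gene lies on chromosome V at 15567394 to 15569897 in WBcel235, on the plus strand, with no other annotated gene overlapping its exons.

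The carnitine step was not called: none of the 6 *cpt* genes passed, and their log2 fold changes ran between -0.30 and 0.16. *cpt-1*, the outer membrane enzyme that commits long chains to the mitochondrion and the *cpt* gene with the most reads, had 6709 and 6375 in hlh-30 ox libraries, against 7058 and 7268 in controls. The ox values were below both controls but by little (log2 fold change -0.13, SE 0.05, adjusted p = 0.114).

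Among the acyl-CoA dehydrogenases 4 of 12 fell (33.3%, against 8.06% of all genes tested) and none rose. All 12 log2 fold changes were below 0 (-0.57 to -0.01). In 9 of 12 (75%) both ox libraries lay below both controls, against 29.4% of all genes tested. *acdh-8* had 322 and 350 normalized reads in hlh-30 ox libraries, against 591 and 421 in controls (log2 fold change -0.57, SE 0.15, adjusted p = 0.0215). The controls themselves were apart here, but both lay above both ox libraries. *acdh-7* and *acdh-10*, both related to the medium-chain enzyme of mammals, are neighbours on the minus strand of chromosome X, at 17215018 to 17217105 and 17213144 to 17214903. *acdh-7* had 1650 and 1420 in hlh-30 ox libraries, against 1982 and 1789 in controls (log2 fold change -0.30, adjusted p = 0.0303). *acdh-10* had 1825 and 1557, against 2079 and 1976 (-0.27, adjusted p = 0.0416). The pair showed the same order of libraries, ox replicate 2 lowest in each. *acdh-3* had 2436 and 2270 in hlh-30 ox libraries, against 2654 and 2798 in controls (-0.21, adjusted p = 0.0426), and its exons overlap those of *knl-2* and K06A5.3, so its reads are uncertain where counting took no strand. *acdh-12*, related to the very-long-chain enzyme, did not pass, with 2630 and 2503 in hlh-30 ox libraries, against 2805 and 2667 in controls (-0.09, adjusted p = 0.361).

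For hydration, the short-chain enoyl-CoA hydratase gene *ech-6* had 2434 and 1955 normalized reads in hlh-30 ox libraries, against 2997 and 2521 in controls. The groups did not overlap, but the higher ox library was close to the lower control (log2 fold change -0.33, SE 0.10, adjusted p = 0.0414), and DESeq2 gave an adjusted p of 0.299, within a range of 1.37e-08 to 0.557 over the alternatives. The last steps of the cycle did not pass. *hacd-1* had 8657 and 7961 in hlh-30 ox libraries, against 8216 and 9490 in controls (-0.09, adjusted p = 0.427), and the thiolase gene *kat-1* had 3140 and 2738, against 3260 and 3060 (-0.11, adjusted p = 0.359). In both genes the groups overlapped.

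The peroxisomal members did not move together: 1 of 5 rose and 2 fell (20% and 40%, against 6.71% and 8.06% of all genes tested). Their median log2 fold change was -0.15. *ech-9*, similar to the peroxisomal bifunctional enzyme, rose. It had 60.5 and 145 normalized reads in hlh-30 ox libraries, against 22.2 and 44.6 in controls, a ratio of means of 3.07 (log2 fold change 1.54, SE 0.42, adjusted p = 0.0264). The ox libraries differed 2.40-fold from each other, and the call was lost without ox replicate 2. The gene is on chromosome IV at 10233310 to 10235329, next to its relative *ech-8*, and its exons overlap those of another annotated gene on the same strand. *ech-8* itself had 425 and 410 in hlh-30 ox libraries, against 381 and 407 in controls (0.08, adjusted p = 0.671), so that the neighbours differed in what was measured; the difference between them was not tested.

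The other peroxisomal members were at or below control. *acs-7*, which activates ascaroside side chains, had 714 and 742 normalized reads in hlh-30 ox libraries, against 870 and 900 in controls (log2 fold change -0.28, SE 0.08, adjusted p = 0.0397), and its exons overlap those of C01G6.9 on the other strand. *acox-1*, now named *acox-1.1*, the oxidase of the first step of ascaroside shortening, had 1422 and 1478, against 1796 and 1626 (-0.24, SE 0.07, adjusted p = 0.0473). These were close to the threshold, and neither passed with DESeq2 (adjusted p = 0.101 and 0.0880, over ranges of 0.0268 to 0.433 and 0.0254 to 0.356 in the alternatives). *maoc-1*, the peroxisomal hydratase, had 937 and 830 in hlh-30 ox libraries, against 960 and 995 in controls (-0.15, adjusted p = 0.286).

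Whether the peroxisomal median was below 0 depended on which gene names were used. The deposited tables carry sequence names for 10 genes that now have symbols of these families, 9 of which passed the minimum, and 6 of the 9 are acyl-CoA oxidases. *acox-1.5* (C48B4.1 in the tables) had 499 and 595 normalized reads in hlh-30 ox libraries, against 301 and 362 in controls (log2 fold change 0.72, SE 0.13, adjusted p = 0.00306). *acox-1.6* (F59F4.1) had 422 and 398, against 296 and 293 (0.48, SE 0.12, adjusted p = 0.0165). *acox-3* (F58F9.7) went the other way, with 1451 and 1298 in hlh-30 ox libraries, against 1754 and 1720 in controls (-0.34, SE 0.07, adjusted p = 0.00924). The oxidases of the *acox-1* group thus differed in direction, 2 higher and 1 (*acox-1.1*) lower among those called. *acox-1.2*, *acox-1.3* and *acox-1.4* were not called, with log2 fold changes of 0.03, 0.78 and 0.64. Over the 11 peroxisomal genes so defined, 3 rose and 3 fell (27.3% each, against 6.71% and 8.06% of all genes tested). Their median log2 fold change was 0.08. These genes were added after the data were seen. The closely related *acox-1* genes may share reads, and 4 of them lie in a cluster, so their separate values are uncertain.

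**Figure D3:**
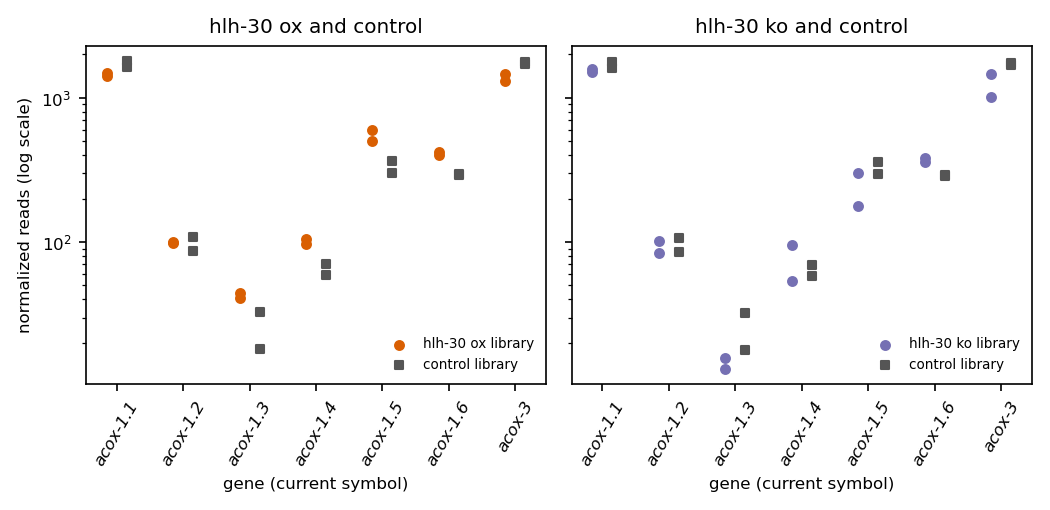
Normalized reads (log scale) of the 7 acyl-CoA oxidase genes by current symbol, each point a library, with hlh-30 ox or hlh-30 ko libraries to the left of the 2 control libraries. With overexpression *acox-1.5* and *acox-1.6* lie above both controls and *acox-1.1* and *acox-3* below; in the knockout the 2 libraries of *acox-1.5* (300.3 and 177) are themselves apart.

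Among the 24 members without a compartment, 4 rose and 4 fell (16.7% each, against 6.71% and 8.06% of all genes tested). Their median log2 fold change was -0.07. *ech-7*, an enoyl-CoA hydratase family gene, had 2082 and 1677 normalized reads in hlh-30 ox libraries, against 1293 and 1419 in controls (log2 fold change 0.46, SE 0.09, adjusted p = 0.00633). *acs-1*, needed for the activation of branched-chain fatty acids of membrane lipids, had 1089 and 1042, against 807 and 857 (0.36, SE 0.08, adjusted p = 0.011). *acs-5*, of the long-chain synthetase family, had 1924 and 1880, against 1607 and 1549 (0.27, SE 0.07, adjusted p = 0.016). *acs-22*, a fatty acid transport protein relative, had 1385 and 1287, against 1059 and 1152 (0.27, SE 0.08, adjusted p = 0.0347). For each of these genes both ox libraries lay above both controls. Exons of *acs-1* overlap those of *hpo-26*, and exons of *acs-22* those of *dylt-2*, so some of their reads may belong to the overlapping gene.

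The synthetase genes that fell were led by *acs-10*, with 462 and 507 normalized reads in hlh-30 ox libraries, against 850 and 689 in controls (log2 fold change -0.66, SE 0.11, adjusted p = 0.00233). It lies on chromosome V at 14146499 to 14148839. *acs-16* had 209 and 204, against 275 and 307 (-0.49, SE 0.14, adjusted p = 0.0338), and *acs-14* had 1032 and 1030, against 1195 and 1273 (-0.26, SE 0.08, adjusted p = 0.0372). *acs-13*, a highly expressed long-chain synthetase gene, had 10009 and 9832, against 11535 and 10756 (-0.17, SE 0.05, adjusted p = 0.0447), and edgeR did not call it; its exons overlap those of Y65B4BL.7 on the same strand, so its reads are uncertain. In these genes, too, the groups did not overlap. The highest member of all, *acs-19*, was at 28817 and 26312 in hlh-30 ox libraries, against 26006 and 27815 in controls (0.03, adjusted p = 0.728).

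Of the 21 synthetases as a family, 3 rose and 6 fell (14.3% and 28.6%, against 6.71% and 8.06% of all genes tested). Their summed signal was 71504 and 66530 normalized reads in hlh-30 ox libraries, against 75849 and 76129 in controls. Most of that difference was *acs-2*: the other 20 synthetases summed to 60737 and 58229 in hlh-30 ox libraries, against 59928 and 61004 in controls, where the groups overlapped. The *acdh* genes summed to 13249 and 11845, against 15071 and 14311. The members nearest to the threshold on its far side, named after their values were seen, were *acdh-5* (log2 fold change -0.53, adjusted p = 0.0532), *ech-4* (-0.21, adjusted p = 0.0724) and *acdh-11* (-0.19, adjusted p = 0.0962).

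**Figure D4:**
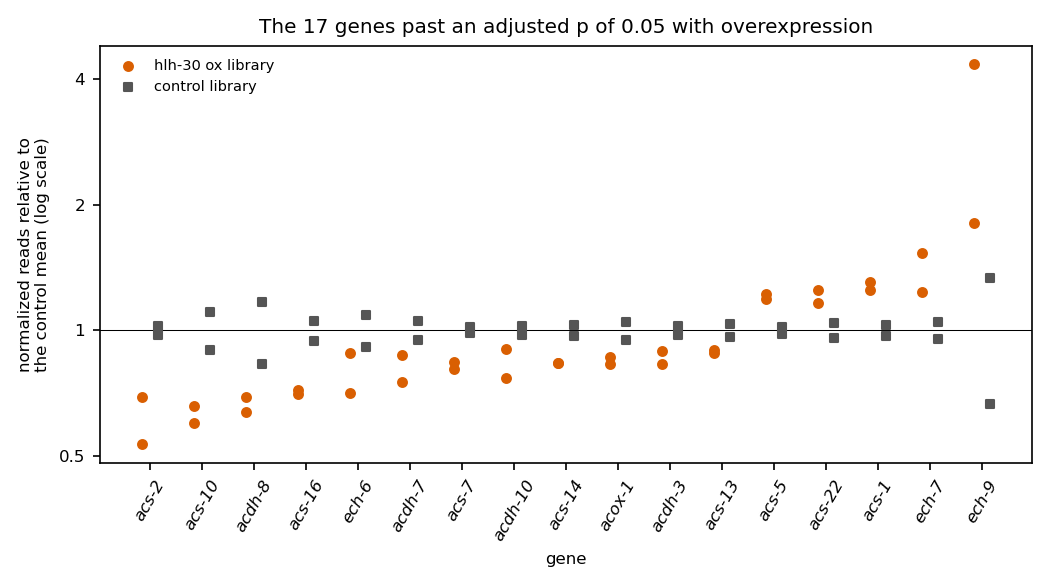
Normalized reads of the 17 genes past an adjusted p of 0.05 with overexpression, each library divided by the mean of the 2 control libraries (log scale); circles are hlh-30 ox libraries and squares, to their right, control libraries. The 12 genes that fell are at the left, from *acs-2* with a mean of 0.614, and *ech-9*, at 1.81 and 4.34, is the only gene with a mean at least 2-fold from control.

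Partner genes of the same pathways, from lists of known components, moved as follows. Of 10 mitochondrial partners 3 fell (30%, against 8.06% of all genes tested), none rose and all 10 log2 fold changes were below 0. With no filter on low genes no gene of the whole table passed, so the partner and marker calls were lost there too. *acaa-2* (F53A2.7 in the tables), a thiolase gene, had 2564 and 2439 normalized reads in hlh-30 ox libraries, against 3076 and 2977 in controls (-0.27, adjusted p = 0.00934). The subunits of the electron transfer flavoprotein, which takes electrons from the acyl-CoA dehydrogenases, fell as well. *etfa-1* (F27D4.1) had 2688 and 2677, against 3225 and 3098 (-0.24, adjusted p = 0.0165), and *etfb-1* (F23C8.5) had 2598 and 2344, against 3119 and 2967 (-0.30, adjusted p = 0.00966). In each the ox libraries lay below both controls.

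Of 20 peroxisomal partners 2 rose and 3 fell (10% and 15%, against 6.71% and 8.06% of all genes tested). They were again without a common direction (median log2 fold change -0.05). *pmp-1*, a peroxisomal ABC transporter gene, had 560 and 635 normalized reads in hlh-30 ox libraries, against 319 and 329 in controls (0.88, adjusted p = 4.56e-04), and *pmp-4*, of the same kind, had 763 and 700, against 528 and 475 (0.54, adjusted p = 0.00348). *pmp-5*, another ABC transporter gene, fell, with 1370 and 926, against 2120 and 1836 (-0.81, adjusted p = 0.0023). The peroxisomal thiolase gene *daf-22* had 1579 and 1554 in hlh-30 ox libraries, against 2107 and 2038 in controls (-0.40, adjusted p = 0.00166). The peroxisomal catalase gene *ctl-2* had 1421 and 1288, against 1679 and 1775 (-0.35, adjusted p = 0.0079). None of the 11 peroxisome assembly (*prx*) genes passed. So *acs-7*, *acox-1*, *acox-3*, *daf-22*, *ctl-2* and *pmp-5* fell, while *ech-9*, *acox-1.5*, *acox-1.6*, *pmp-1* and *pmp-4* rose.

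Propionate, left from odd-numbered and branched chains, is broken down by a route that depends on vitamin B12 or by a shunt that does not. Of 8 genes of these routes 6 fell (75%, against 8.06% of all genes tested) and none rose, with a median log2 fold change of -0.23. The carboxylase genes *pcca-1* (-0.24, adjusted p = 0.0187) and *pccb-1* (-0.23, adjusted p = 0.0149) and the mutase gene *mmcm-1* (-0.19, adjusted p = 0.0321) belong to the first route. *hach-1* (F09F7.4; -0.26, adjusted p = 0.0279), *hphd-1* (Y38F1A.6; -0.50, adjusted p = 0.0477) and *alh-8* (-0.31, adjusted p = 0.00373) belong to the shunt. Among 12 regulators of fat metabolism 2 rose (16.7%, against 6.71% of all genes tested). *nhr-49*, whose receptor activates *acs-2*, had 4524 and 4430 normalized reads in hlh-30 ox libraries, against 3633 and 3921 in controls (0.25, adjusted p = 0.0134). *mxl-3*, known to act against HLH-30 on lipase genes, had 3561 and 3351, against 2370 and 3145 (0.34, adjusted p = 0.0395). *acs-2* and *nhr-49* thus differed in direction.

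Marker genes of tissues moved in the same libraries, where 6.71% of all genes tested passed higher and 8.06% lower. Fewer cells of a type and less RNA per cell cannot be told apart in whole worms. Of 7 intestinal markers 5 rose and none fell (summed signal 483044 and 492206 normalized reads in hlh-30 ox libraries, against 424085 and 476894 in controls). Of 6 body wall muscle markers 1 rose and 4 fell (115153 and 116782, against 140450 and 138955). The markers of sperm, oocytes and germline each had 3 of 6 lower and none higher; sums were 2190 and 2548 against 3426 and 3049 for sperm, 69754 and 73027 against 79849 and 76986 for oocytes, and 28484 and 27975 against 33458 and 31727 for germline. None of the 6 neuronal markers passed, and of 6 cuticle markers only *rol-6* did, the gene carried by a plasmid in some of the study's strains. No marker was at 0 in every library. The part of these shifts in the results for the 52 genes was not tested.

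*hlh-30* knockout was then set against the same controls. No member passed an adjusted p of 0.05, where 2 of 15749 genes tested did (0.0127%), nor did any with edgeR or DESeq2, which called 0.0127% and 0.756% of all genes. At an unadjusted p under 0.05 there were 5 members with limma, all lower, 4 with edgeR and 5 with DESeq2. With limma 11% of all genes tested were under that value, 5.11% lower. The share of all genes was not counted for edgeR and DESeq2. The 5 members with limma were *cpt-1*, *ech-6*, *acdh-7*, *acdh-10* and *cpt-3*, with unadjusted p-values between 0.0156 and 0.0498. The median log2 fold change was -0.10 for the 52 genes, -0.10 for the mitochondrial members and -0.13 for the peroxisomal members. The ko and control libraries did not overlap in 50% of members, against 45.7% of all genes tested. Both ko libraries lay above the control mean in 9 members, both below in 23, and they were split in 20. For the ox libraries the numbers were 12, 31 and 9. The same was not counted over all genes, so these numbers cannot set the members apart.

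The genes called with overexpression were of several kinds in the knockout, which shares the control libraries, so the values are given side by side and not correlated. *acs-2* had 11023 and 16150 normalized reads in hlh-30 ko libraries, against 15646 and 14864 in controls (log2 fold change -0.19, SE 0.18, adjusted p = 0.674), 1 ko library being below and the other above both controls. *acs-10* had 578 and 809, against 836 and 677 (-0.14, adjusted p = 0.806), and *ech-7* had 1504 and 1139, against 1270 and 1395 (-0.02, adjusted p = 0.963). The groups overlapped in these genes as well. Other genes lay below both controls in each ko library, with log2 changes of about the size seen with overexpression, but did not pass the test. *ech-6* had 2116 and 2108 in hlh-30 ko libraries, against 2945 and 2477 in controls (-0.35, adjusted p = 0.422), beside -0.33 with overexpression. *acs-7* had 844 and 617, against 855 and 885 (-0.27, adjusted p = 0.568), beside -0.28. *acdh-7* stood at -0.46 (adjusted p = 0.426) and *acdh-10* at -0.36 (adjusted p = 0.447), beside -0.30 and -0.27 with overexpression. Others went the opposite way, also without passing. *acs-14* had 1258 and 1370 in hlh-30 ko libraries, against 1175 and 1251 in controls (0.11, adjusted p = 0.699), beside -0.26. *acs-5* had 1285 and 1520, against 1579 and 1522 (-0.15, adjusted p = 0.642), beside 0.27. *acdh-8*, whose groups overlapped, stood at 0.15 (adjusted p = 0.827), beside -0.57. *cpt-1*, which was not called with overexpression, had 6015 and 5296 in hlh-30 ko libraries, against 6936 and 7143 in controls (-0.32, SE 0.10, unadjusted p = 0.0156, adjusted p = 0.409). *daf-22* had 1594 and 1458, against 2071 and 2003 (-0.42, adjusted p = 0.394). *daf-22* was thus near its overexpression value of -0.40, and *cpt-1* further from 0 than its -0.13; neither difference between the comparisons was tested.

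The main feature of the knockout was how far its 2 libraries differed. At least 2-fold separated them in 5 of 52 members (9.62%, beside 8.81% of all genes), against 3 members for the ox libraries and 2 for the controls; these 5 were named after their values were seen. *acdh-1*, a dehydrogenase of the propionate shunt, had 55.0 and 949 normalized reads in the hlh-30 ko libraries, against 1310 and 1094 in controls. The first ko library, with 54 reads, was 21.9-fold below the control mean, while the second was 1.27-fold below. *ech-9* had 291 and 3.70, against 21.8 and 43.8, so that the first library was 8.87-fold above the control mean and the second, with 4 reads, 8.87-fold below. *cpt-3* had 8.14 and 57.4, against 107 and 81.7. *acs-3* had 89.6 and 245, against 151 and 153, and the low gene *acs-9* had 7.13 and 16.7, against 12.5 and 4.98.

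**Figure D5:**
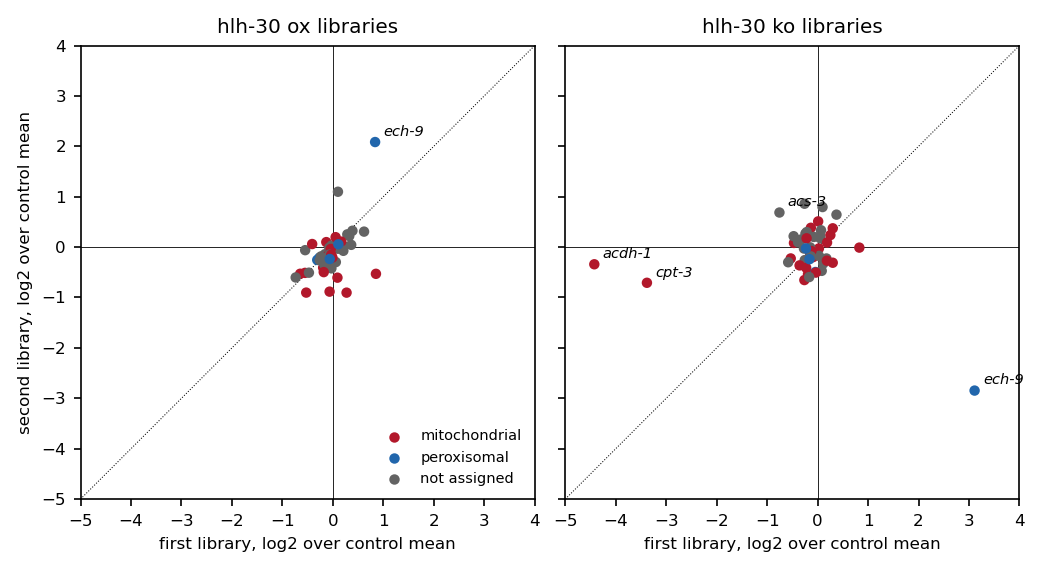
Log2 of normalized reads plus 1 over the control mean for each of the 52 genes in the first library (x axis) and the second library (y axis) of hlh-30 ox (left) and hlh-30 ko (right); the dotted line marks equal values and colour the compartment. In the knockout *acdh-1* and *cpt-3* lie far to the left and *ech-9* at the lower right, that is at least 2-fold apart between the libraries.

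The call for the knockout depended on which library was kept. Without ko replicate 1, 22 members passed (8 higher, 14 lower), where 25.9% of all genes tested did, and without ko replicate 2, 13 passed (2 higher, 11 lower), where 17.6% did. In such a fit the lone ko library is assumed to vary as the controls do. *ech-9* passed in both, with a log2 fold change of -2.77 without replicate 1 and 3.19 without replicate 2, and *acs-3* passed in both with 0.69 and -0.76. *acdh-1* was below control in both, at -0.34 and -4.42.

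Some partner genes were apart in the same libraries. At least 2-fold separated the ko libraries in 1 of 10 mitochondrial, 1 of 20 peroxisomal and 2 of 12 regulator partners. No propionate partner was that far apart, where 8.81% of all genes were. *pmp-5* had 206 and 1030 normalized reads in hlh-30 ko libraries, against 2083 and 1805 in controls, and *hphd-1* of the propionate shunt had 795 and 1559, against 1981 and 1721. The nuclear receptor gene *nhr-68*, known as a regulator of propionate breakdown, had 418 and 896, against 896 and 834, and *nhr-114* had 203 and 431, against 494 and 517. Each of these was lower in the first ko library, as *acdh-1* was. None of the 10 mitochondrial, 20 peroxisomal, 12 regulator and 8 propionate partners passed the test in the knockout. Some tissue markers also differed between the 2 ko libraries. The intestinal actin gene *act-5* had 5216 and 890, against 1068 and 1204 in controls. It was the only 1 of 7 intestinal markers at least 2-fold apart. The 7 summed to 401005 and 303421, against 416775 and 468694, so *act-5* does not stand for the list. Of 6 cuticle markers 3 were at least 2-fold apart, and no marker of the other tissues was. The oocyte markers summed to 82796 and 56237, against 78473 and 75663. No marker passed the test in the knockout, and the part of these differences in the members' values was not tested.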

How the data were processed

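RNA-seq of 6 libraries was used, 2 per group. Per the labels and the submitters' processing notes, reads were handled with HISAT2, featureCounts and DESeq2; versions and genome build are not given in the sources used here. The signal deposited by the authors is the number of reads of a gene divided by a size factor of the library, in 1 table per comparison. Values became whole reads (within 0.01) for 100% of genes. The authors' own fold changes and p-values in the tables were not used. The knockout sample descriptions both carry the number 1, so which column is which sample is not shown, and the ko libraries keep the table's numbers as names only.

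Genes that had 10 normalized reads or more in 2 or more libraries of a table were tested with limma 3.58.1 (R 4.3.3, trended variance) on log2(normalized reads + 1), with the 4 libraries of the table and Benjamini-Hochberg adjustment over all genes tested. Fold changes are on that scale, which understates changes of low genes. Calls used an adjusted p of 0.05, and with it the 2-fold change of the methods. With 2 libraries against 2, an exact permutation test of a single gene cannot go below p = 0.333, so none was run. Named genes were *hlh-30*, every member called, and the member of each family with the most control reads; partner genes were named only where called. Other genes that are named (*ech-8*, the oxidases, *cpt-3*, *acdh-1*, *acs-3*, *acs-9*, *nhr-68*, *nhr-114*, *act-5*, the genes nearest to a threshold) were chosen after their values were seen. Members and lists were chosen with earlier results of these data known.

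Exon lengths, positions and current symbols came from Ensembl release 115 (WBcel235) and RefSeq, matched for 97.8% of genes. Strand-specific counting is not stated, so overlapping genes are uncertain. Alternatives were another pseudocount, other filters, no variance trend, all 6 libraries in 1 fit and TMM scaling. Further alternatives were edgeR 4.0.16 and DESeq2 1.42.0 on recovered reads, a replicate block and leaving out each library. An alternative that added genes by current symbol, and removed none, was made after seeing the data. The depth was between 18097925 and 19300834 reads, and counting error is small for all but the lowest genes.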

Additional observations from a re-analysis of the deposited data

How the results depend on the processing

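With overexpression, 17 of the 52 genes passed an adjusted p of 0.05. The number was 0 with no filter on low genes, 0 without the variance trend and 0 with all 6 libraries in 1 fit. In these fits 20, 9 and 12 members were at an unadjusted p under 0.05, against 24 in the reported fit. Of all genes, 0, 3 and 12 passed the adjusted p in the same fits, against 2351 in the reported fit. Under the unadjusted p there were 4515, 3199 and 2357 of all genes, against 4600. The loss of calls was thus not limited to the members. With DESeq2 8 members passed. Omitting single libraries gave 0 to 20. The count with a 2-fold change was 1; it was 0 with no filter, 0 without the variance trend, 0 with all 6 libraries in 1 fit, and 0 to 1 on omitting single libraries. The number past the adjusted p was 17 with the other pseudocount, 17 with at least 10 normalized reads in every library, 15 with TMM scaling and 16 with edgeR. The causes were not tested. The peroxisomal median log2 fold change with overexpression was -0.15, and -0.209 to -0.0617 on omitting single libraries. It was 0.0835 with genes added by current symbol, an alternative made after the data were seen. The mitochondrial median was -0.17, and -0.25 to -0.09 on the same omissions. Same-numbered ox and control libraries did not deviate together (r = 0.0273 over 15918 genes). That value cannot show whether they shared a culture or batch. With the replicate block 20 members passed, where 2920 of 15918 genes tested did. No paired analysis was possible for the knockout because its 2 sample descriptions carry the same number, so the numbers of the table's columns cannot be tied to the labelled replicates; by column number r was -0.0817 over 15749 genes.

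In the knockout, 0 members passed, and 0 to 22 on omitting single libraries; with a 2-fold change the numbers were 0, and 0 to 3. The peroxisomal median was -0.13, and -0.24 to -0.15 on these omissions. With overexpression, *acs-19* (reported at 0.03) had -0.0316 to 0.10 on omitting single libraries and *hacd-1* (-0.09) had -0.19 to 0.0149. The same omissions in the knockout gave log2 fold changes from -0.38 to 0.10 for *acs-10*, -0.22 to 0.18 for *ech-7*, -0.47 to 0.0827 for *acs-2*, -2.77 to 3.19 for *ech-9*, -0.11 to 0.40 for *acdh-8*, -0.47 to 0.0821 for *acs-13*, -0.0739 to 0.20 for *acs-22*, -0.33 to 0.15 for *acs-16* and -0.27 to 0.18 for *kat-1*, so each took both signs. With edgeR, *ech-7* had 0.00279 in the knockout, where limma gave -0.02. Of the other values of named genes under an alternative, 113 with overexpression kept their sign but were no longer past the threshold, and 194 kept both their sign and their side.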
